A study of Mus musculus with 12 samples.

Results

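Cluster 18 is 1 of the 25 clusters into which the authors sorted single nuclei of the embryonic mouse cerebral cortex, and they named it Int 4, an interneuron cluster. All nuclei that the authors had assigned to Cluster 18 were taken, which gave 971 nuclei of 50550. They came from 11 embryos of C57BL/6J mice, and their RNA was measured by single nucleus RNA sequencing (snRNAseq). The dams of 5 embryos had been injected intraperitoneally with saline (S1-1, S1-2, S2-1, S2-2 and S2-4), and the dams of 6 embryos with ethanol (EtOH) at 2.5 g/kg, given as a 25% v/v solution in saline (E1-1, E1-2, E2-1, E2-2, E2-3 and E2-4). Injections were given once a day for 6 days in both groups, starting at E8.5 and ending at E13.5, and cortices were collected at E14.5, a day that the labels give as E14. Each treatment had 2 dams, and each embryo's name starts with its dam (E2-4 is an embryo of dam E2), so littermates shared a dam and the p-values below do not account for it. Libraries were made in 2 batches that followed the dam's number, so that S1 and E1 shared batch 1 and S2 and E2 shared batch 2. A cortical dissection at this age can carry neighbouring tissue, with 2 litters a group limiting what the comparison represents, and the sex of each embryo was not used here.

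GABAergic neurons of the forebrain are born below the cortex, in the ganglionic eminences, and the cortical interneurons among them migrate into the cortex, while others stay to form the striatum, the pallidum and the septum. Gad1 and Gad2 make GABA from glutamate, and Slc32a1 loads it into vesicles. A smaller class of neurons from the same territory makes acetylcholine with the enzyme Chat, retakes choline through the transporter Slc5a7, and depends on LIM homeobox factors such as Lhx8 and Isl1. Olfm3 encodes a secreted olfactomedin-domain glycoprotein, and Rarb a nuclear receptor for retinoic acid that is known for its part in striatal development.

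The number of Cluster 18 nuclei was uneven across embryos. The saline embryos held 150 (S1-1), 99 (S1-2), 130 (S2-1), 87 (S2-2) and 124 (S2-4) nuclei. The EtOH embryos held 49 (E1-1), 34 (E1-2), 100 (E2-1), 102 (E2-2), 32 (E2-3) and 64 (E2-4) nuclei. Unique molecular identifiers (UMIs, each standing for 1 captured transcript) numbered 1065 to 58419 per nucleus with a median of 7504, and 226702 to 1647611 per embryo. Across all libraries, 314 cell barcodes occurred in more than 1 library; none was shared between libraries within Cluster 18, and 7 of its barcodes also occurred outside the cluster. Libraries that stood apart were E1-2 and E2-3, with the fewest nuclei, and S2-4, whose median of 5744 UMIs per nucleus was the lowest of the saline embryos and whose share of UMIs from long noncoding RNAs, 5.58%, lay above the 4.08% to 4.66% of the other 4 saline embryos and within the 4.96% to 5.95% of the EtOH embryos. Values without 1 of these embryos are given for the levels of Chat, Prima1, Slc5a7 and Tacr1 and for the EtOH comparison.

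The 3 genes that mark the cluster were found at levels that ranked differently among the 25 clusters. Levels are given as CPM (UMIs of a gene, summed per embryo, scaled to a total of 1e6), as mean ± SD over the 11 embryos, and differences between clusters are a description without a test, because the authors built the clusters from the same counts. Olfm3 was at 547 ± 120 CPM in Cluster 18, the highest of the 25 clusters, followed by Cluster 22 (callosal projection neurons) at 423 ± 186 CPM and Cluster 19 (an unknown neuronal type) at 223 ± 83.5 CPM. The embryos' ranges overlapped between Clusters 18 and 22 (363 to 720 against 181 to 812 CPM), whereas the highest embryo of Cluster 19, at 351 CPM, was below the lowest of Cluster 18.

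Gad2 was at 909 ± 133 CPM in Cluster 18, which was rank 7 of 25, behind Clusters 10 (1210 ± 143), 23 (1193 ± 239), 11 (1172 ± 188), 5 (1102 ± 74.5), 15 (1100 ± 146) and 13 (1062 ± 127 CPM). The ranges of embryos overlapped between each of these clusters and Cluster 18, which ran from 648 to 1130 CPM. Cluster 7 followed at 608 ± 134 CPM, and the next cluster was far lower at 159 ± 96.6 CPM (Cluster 20, radial glia), with a highest embryo of 328 CPM. Rarb was second highest in Cluster 18, at 519 ± 179 CPM, after 1910 ± 179 CPM in Cluster 11 (named striatal interneurons by the authors) and before 294 ± 121 CPM in Cluster 13 (Int 2). Its lowest embryo in Cluster 11 (1584 CPM) was above its highest in Cluster 18 (785 CPM), and Clusters 18 and 13 overlapped.

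**Figure D1:**
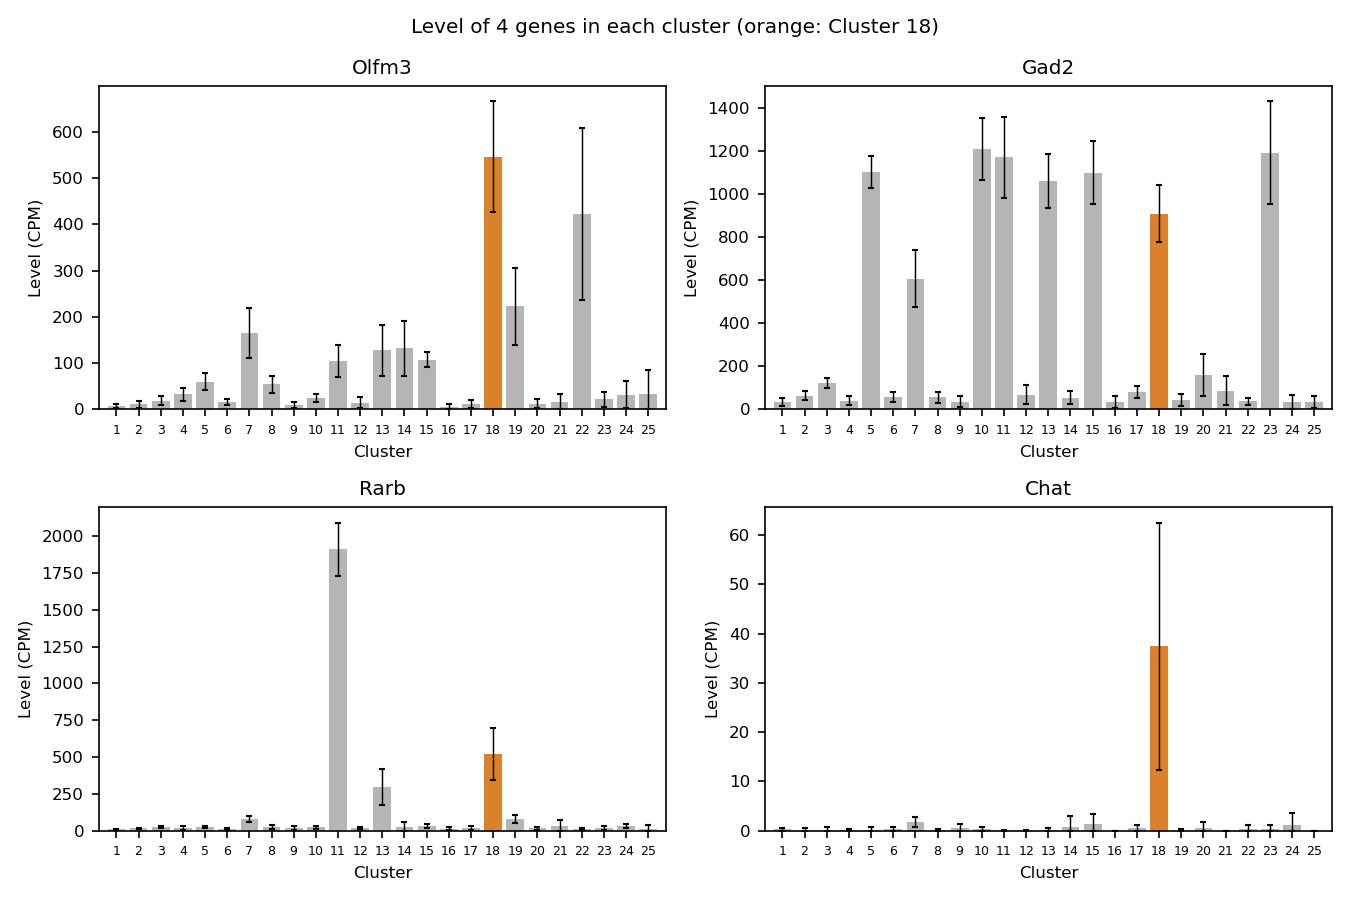
Mean level (CPM, linear axis from 0) of Olfm3, Gad2, Rarb and Chat in each of the 25 clusters, with bars for the SD over 11 embryos and Cluster 18 in orange. Olfm3 and Chat peaked in Cluster 18 at 547 and 37.4 CPM, Gad2 was high in all interneuron clusters, and Rarb was highest in Cluster 11 at 1910 CPM.

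Single nuclei carried these markers unevenly. Depth decides how often a transcript is seen, so each nucleus was thinned to 2000 UMIs, which left out 1 saline and 5 EtOH nuclei below that number. After thinning, 76.1% of Cluster 18 nuclei had a Gad2 UMI (exact binomial 95% interval 73.2 to 78.7), 29.7% an Olfm3 UMI (26.9 to 32.7) and 29.8% a Rarb UMI (26.97 to 32.8). Without thinning the shares were 94.7%, 41.9% and 41.6%. Cluster 1, callosal projection neurons that should lack Gad2, gave the background: 5.98% of its thinned nuclei had a Gad2 UMI, 1.22% an Olfm3 UMI and 2.30% a Rarb UMI, at median depths before thinning of 6629.5 UMIs there and 7554 UMIs in Cluster 18. Intervals cover counting error only.

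Markers of other cell types were low. All 10 GABAergic genes examined were detected, and their summed level was 2343 CPM, beside 2129, 2641 and 2772 CPM in Clusters 11, 13 and 15 (Int 2 and Int 3 are Clusters 13 and 15), the 3 clusters chosen for comparison. Glutamatergic markers summed to 151 CPM, with the projection neuron factor Neurod2 at 13.51 ± 9.09 CPM (rank 24 of 25) and the vesicular glutamate transporter Slc17a6 at 21.2 ± 12.5 CPM (rank 24). Summed levels were 91.97 CPM for 8 radial glial genes, 21.2 CPM for 5 microglial genes (C1qa at 0 in every embryo), 14.9 CPM for 5 endothelial genes, 2.88 CPM for 3 pericyte genes, 5.91 CPM for 4 meningeal genes and 1.495 CPM for 4 oligodendrocyte precursor genes. Of 4 thalamic genes, Ntng1 was at 151 ± 47.96 CPM and Gbx2 at 1.27 ± 1.55 CPM.

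Chat, Prima1 and Slc5a7 had the largest ratios to the next highest cluster. Among 6261 genes of at least 20 CPM, 80 (1.28%) had their highest mean in Cluster 18, and 6 of these exceeded the next cluster by more than 2 times. Chat, choline acetyltransferase, was at 37.4 ± 25.1 CPM, 21.9 times the 1.71 CPM of Cluster 7, the next highest. It was at 44.9, 16.2, 17.7, 35.4 and 51.4 CPM in the saline embryos in the order S1-1, S1-2, S2-1, S2-2 and S2-4, and from 15.02 to 102 CPM with a median of 36.4 in the EtOH embryos. Every embryo was above the highest embryo of Cluster 7 (3.36 CPM) and of Cluster 15 (6.60 CPM), and E1-2 was the highest. Without E1-2 the mean of the other 10 embryos was 30.9 CPM (range 15.02 to 51.4).

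Prima1, the membrane anchor of acetylcholinesterase, was at 33.8 ± 20.4 CPM (7.42 times the next cluster), and Slc5a7, the choline transporter, at 22.8 ± 15.7 CPM (4.40 times). Without E1-2 the means were 29.5 CPM for Prima1, 20.1 CPM for Slc5a7 and 84.5 CPM for Tacr1. The other genes with the largest ratios were Cntnap5b, a contactin-associated adhesion protein, at 1465 ± 421 CPM (3.15 times), the phosphodiesterase gene Pde8b at 100 ± 33.5 CPM (2.28 times), the zinc finger factor Tshz2 at 3128 ± 456 CPM (2.04 times), Tacr1, the substance P receptor, at 102 ± 72.5 CPM (1.95 times), the noncoding RNA gene Gm26883 at 1248 ± 381 CPM (1.81 times), Tcerg1l at 178 ± 46.7 CPM (1.60 times) and the LIM-only factor Lmo4 at 228 ± 73.3 CPM (1.59 times). Gm26883 lies within Tshz2 on the opposite strand, so reads of these genes may not be told apart if counting ignored strand. The paper names default Cell Ranger parameters and does not mention strand. Others of the first 12 markers that the authors list were also highest in Cluster 18: the calcium channel subunit Cacna2d3 at 2530 ± 435 CPM, Sntg1, a syntrophin, at 1901 ± 515 CPM, Ptprn2 at 1317 ± 111 CPM and Pid1 at 1048 ± 221 CPM. C79798 was second in rank at 217 ± 110 CPM. Of the 100 marker genes that the authors list for Cluster 18, 24 had their highest mean there and 52 their highest or second highest. That list was chosen on these nuclei and is not independent evidence.

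Chat RNA was concentrated in few nuclei. A Chat UMI was found in 82 of the 971 nuclei (8.45%), beside 96 of the 49579 nuclei of the other clusters (0.194%) and 6 of 4366 in Cluster 1 (0.137%), at median depths of 7504, 7252 and 6607.5 UMIs. Thinned to 2000 UMIs, 37 of 965 Cluster 18 nuclei (3.83%) and 4 of 4346 Cluster 1 nuclei (0.0920%) had one. Cluster 18 held 281 of the 425 Chat UMIs of all nuclei (66.1%).

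Gene families were compared as lists chosen with earlier results of these data known. Among 11 septal, pallidal and cholinergic genes, 3 had their highest mean in Cluster 18 and 6 were first or second. Lhx8 was at 130 ± 46.1 CPM and Gbx1, a homeobox factor, at 116 ± 56.7 CPM, each second to Cluster 15 (171 and 201 CPM). Isl1 was at 174 ± 32.1 CPM, second to Cluster 11 (277 CPM), and in Clusters 13 and 15 it was at 8.56 and 11.4 CPM. The nerve growth factor receptor gene Ngfr was at 0.291 ± 0.512 CPM.

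Of 20 striatal projection neuron genes, none had its highest mean in Cluster 18 and 6 were second in rank. Meis2, a homeobox factor, was at 4148 ± 800 CPM, Foxp2 at 1699 ± 377 CPM and Bcl11b at 1237 ± 130 CPM, beside 5528, 2502 and 1907 CPM in Cluster 11. Ebf1, which helps striatal neurons differentiate, was at 216 ± 173 CPM against 12460 ± 1265 CPM in Cluster 11, and Ikzf1 at 1.27 ± 1.249 against 166 ± 70.2 CPM. The dopamine receptor genes Drd1 and Drd2 were at 1.51 ± 1.503 and 8.29 ± 8.51 CPM.

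Sox6, Erbb4, Nxph1, Lhx6 and Adarb2 were lower in mean level than in Cluster 15, and Nr2f1 and Prox1 were not. Of 12 genes of interneurons from the medial ganglionic eminence, Sox6 was at 297 ± 133 CPM beside 2469 CPM in Cluster 15, the receptor Erbb4 at 1784 ± 468 beside 4670 CPM, Nxph1 at 162 ± 75.3 beside 1203 CPM, and Lhx6 at 58.3 ± 19.7 beside 190 CPM. Sst and Npy, neuropeptides of maturing interneurons, were at 3.79 ± 2.80 and 1.30 ± 1.42 CPM. Of 8 caudal eminence genes, Adarb2 was at 869 ± 177 CPM beside 18430 CPM in Cluster 15, the nuclear receptor gene Nr2f1 at 111 ± 26.8 beside 101 CPM, the homeobox gene Prox1 at 58.8 ± 44.3 beside 33.8 CPM, and Htr3a, a serotonin receptor, had no UMI in any embryo. Top2a and Mki67, markers of dividing cells, summed to 58.2 CPM.

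Transcription factors of the Tshz, Zfhx, Pbx and Meis families were at high rank, with a median rank of 4.5 over 12 genes. Their summed level was 17700 CPM, beside 11590, 17620 and 6047 CPM in Clusters 11, 13 and 15. Pbx3 was second of 25 clusters at 4444 ± 474 CPM, Tshz3 was rank 3 at 310 ± 49.3 CPM, and Zfhx3 rank 4 at 1184 ± 262 CPM. Tshz1, which marks another group of eminence-derived neurons, was at 49.6 ± 28.5 CPM, beside 517 CPM in Cluster 13.

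Receptor genes for GABA were also at high rank (median rank 4.5 over 12 genes). Their summed level was 3316 CPM, beside 1934, 2049 and 3176 CPM in Clusters 11, 13 and 15. Gabrg1 was highest in Cluster 18 at 79.6 ± 20.5 CPM, next to 65.3 ± 24.5 CPM in Cluster 15 (a gap smaller than either SD), and it was at 3.24 and 10.6 CPM in Clusters 11 and 13. Gabrb2 was rank 3 at 442 ± 98.5 CPM, beside 716 CPM in Cluster 15. Gabrd was near 0. Of 22 glutamate receptor genes, the kainate receptor gene Grik2 was at 2146 ± 412 CPM (rank 14) and the AMPA receptor gene Gria2 at 1268 ± 183 CPM (rank 9).

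Axon guidance genes were led in rank by Robo1, a receptor for Slit proteins, at 6816 ± 766 CPM in Cluster 18, ahead of 5057 CPM in Cluster 11. Srgap1, which acts downstream of Robo receptors, was at 940 ± 90.4 CPM beside 943 CPM in Cluster 11, and the netrin gene Ntn1 was second at 340 ± 86.2 CPM. The netrin receptor Dcc was at 9457 ± 1481 CPM (rank 9), and Robo2 at 3698 ± 536 CPM (rank 6). Among 13 olfactomedin, latrophilin and partner genes, Olfm3 alone had its highest mean in Cluster 18, and its family members Olfm1 and Olfm2 were at 21.3 ± 8.49 and 144 ± 22.9 CPM (ranks 21 and 13). Adgrl3, a latrophilin, was at 2060 ± 287 CPM (rank 9).

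Of 19 retinoic acid pathway genes, Rarb, its heterodimer partner Rxrg and the binding protein gene Crabp1 were second in rank, each behind Cluster 11. Rxrg was at 47.99 ± 17.9 CPM and Crabp1 at 2.74 ± 2.72 CPM. Of the enzymes on the route to retinoic acid, Rdh10 was at 19.5 ± 5.45 CPM (rank 5), Aldh1a1 at 1.245 ± 1.52, Aldh1a2 at 0.0552 ± 0.183 and Aldh1a3 at 4.14 ± 5.64 CPM, and the degrading enzyme Cyp26b1 at 0.863 ± 1.19 CPM.

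To describe how these genes were spread over nuclei, Cluster 18 was split into 4 sets after the values had been seen. This is a description without a test, and the genes that define the sets differ between them by construction. The sets were nuclei with a Chat UMI (82 nuclei), nuclei with UMIs of both Gbx1 and Lhx6 and none of Chat (112, 11.5%), nuclei with Rarb and none of Lhx8, Gbx1, Lhx6 or Chat (318 nuclei), and the remaining 459 (47.3%). Median depth differed among the sets, at 10964, 10957, 8173.5 and 6066 UMIs, and the part of depth in this split was not tested. CPM below are means of the embryos' values within a set, and every embryo had nuclei in every set. Some embryos had few, so counts of embryos below rest partly on single nuclei. The Chat set held 2 nuclei in E2-3 and 3 in E2-4, and the Gbx1 and Lhx6 set 3 in E1-1 and 4 in E1-2. The defining genes were not exclusive, since a Rarb UMI was found in 38 of 112 nuclei of the Gbx1 and Lhx6 set (33.9%) and in 16 of 82 of the Chat set (19.5%), beside 41.6% of all Cluster 18 nuclei and 6.78% of Cluster 1 nuclei.

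In the Chat set, Lhx8 was found in 78 of 82 nuclei (95.1%, interval 87.98 to 98.7), Isl1 in 68 (82.9%), the zinc finger gene Zic1 in 62 (75.6%), Ecel1, an endopeptidase-like gene, in 59 (71.95%), Tacr1 in 58 (70.7%), Prima1 in 54 (65.9%) and Slc5a7 in 44 (53.7%). In Cluster 1, not thinned and at a lower median depth of 6607.5 UMIs, the shares in the same order were 1.145%, 2.86%, 5.52%, 0.412%, 0.870%, 0.0687% and 0.298%. Tacr1 was at 609 ± 273 CPM in the Chat set, against 35.1 ± 34.9 in the Gbx1 and Lhx6 set and 1.30 ± 2.38 in the Rarb set. It was higher in the Chat set in 11 of 11 embryos in each case. Gad1 was at 34.4 ± 30.4 CPM in the Chat set, against 197 ± 68.4 and 288 ± 59.9 CPM, and was lower in the Chat set in 11 of 11 embryos. Gad2 was at 408 ± 100 CPM, and 70 of the 82 nuclei had a UMI of it.

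Nuclei of the Gbx1 and Lhx6 set had Lhx8 in 102 of 112 cases (91.1%) but Isl1 in 4 (3.57%) and Slc5a7 in none (exact binomial upper limit 3.24% for nuclei with a UMI, which is no limit on nuclei that express the gene). The GABA receptor genes Gabrg1 and Gabrb2 were at 296 ± 116 and 1300 ± 543 CPM, each higher than in the Chat and Rarb sets in 11 of 11 embryos. Ntn1 was at 18.7 ± 14.54 CPM, against 432 ± 226 in the Chat set and 685 ± 146 in the Rarb set.

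The Rarb set had Isl1 in 213 of 318 nuclei (66.98%) and the highest levels of several transcription factor genes. Bcl11b was at 1860 ± 136 CPM, Foxp2 at 2776 ± 892 CPM, Rxrg at 107 ± 36.97 CPM and Lmo4 at 387 ± 95.5 CPM, each above the Chat set in 11 of 11 embryos. Cntnap5b was at 2714 ± 754 CPM, against 328 ± 236 and 298 ± 185 CPM in the Chat and the Gbx1 and Lhx6 sets, and Robo1 at 9242 ± 916, against 3895 ± 1009 and 4357 ± 2745 CPM. Ebf1, which was at 12460 CPM in Cluster 11, was at 260 ± 220 CPM in the Rarb set. The remaining nuclei were highest in Tshz2 (4735 ± 427 CPM), Meis2 (6609 ± 1559 CPM) and Gad2 (1329 ± 276 CPM). Olfm3 was present in all 4 sets, at 416 ± 253, 620 ± 568.0, 766 ± 326 and 365 ± 158 CPM in the order of the sets, with overlapping ranges.

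**Figure D2:**
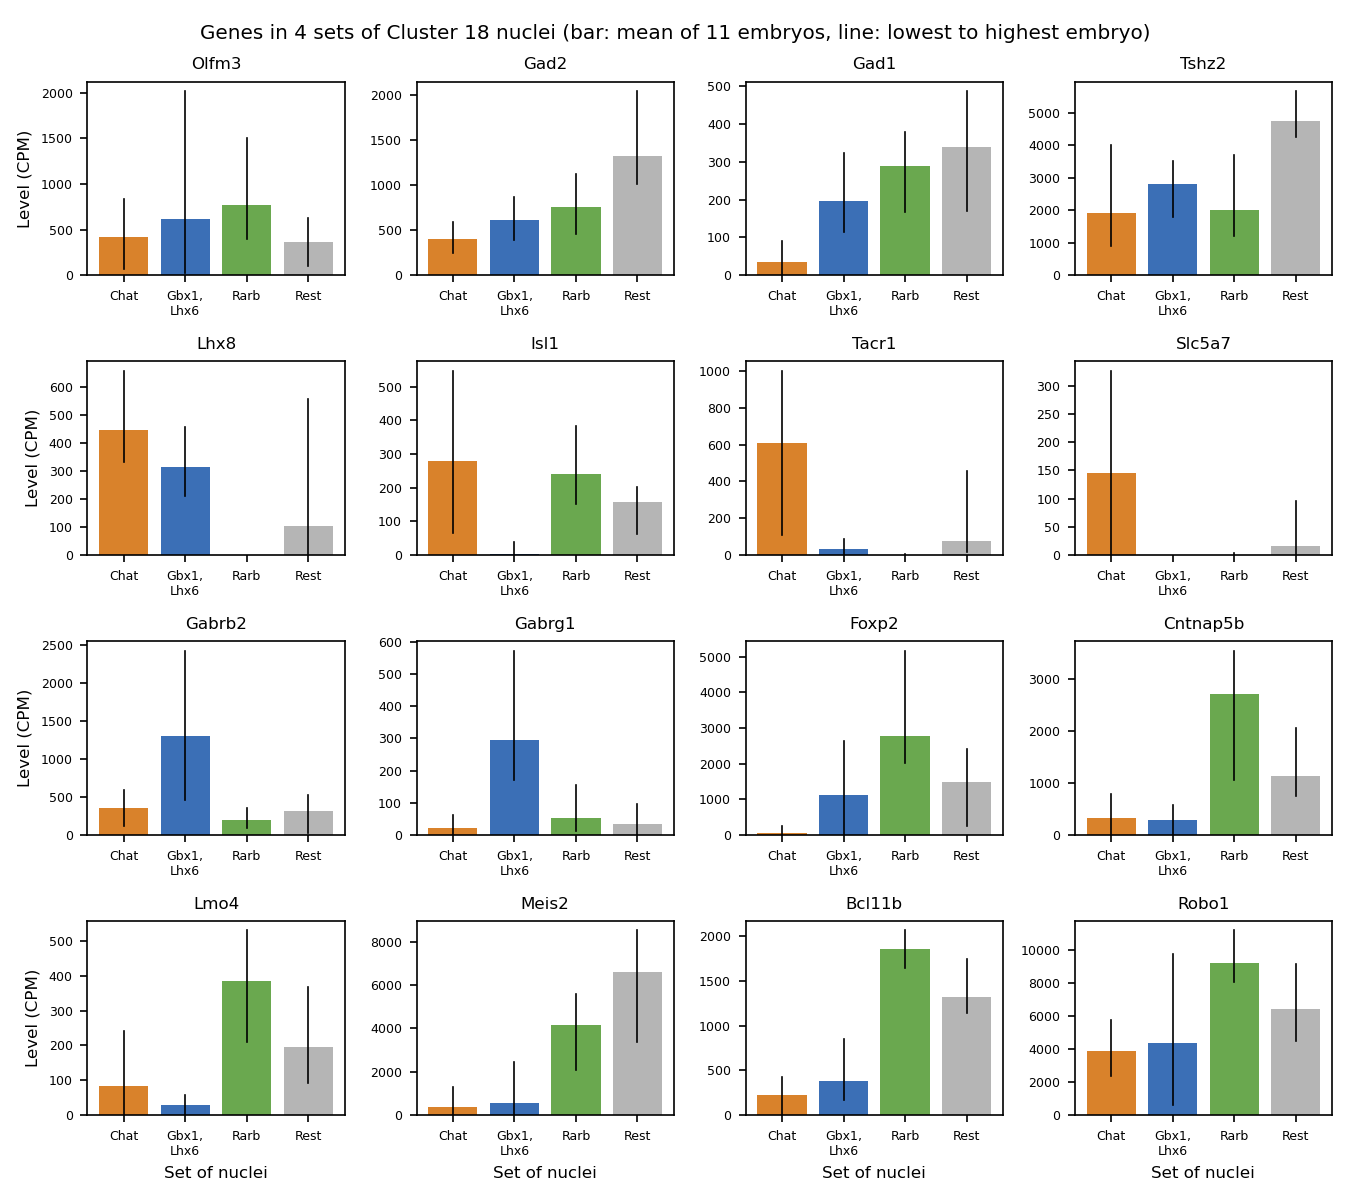
Level (CPM, linear axes from 0) of 16 genes in 4 sets of Cluster 18 nuclei, with the mean of 11 embryos as a bar and the lowest to highest embryo as a line. Tacr1 stood out in the Chat set, Gabrg1 and Gabrb2 in the Gbx1 and Lhx6 set, and Cntnap5b, Lmo4 and Bcl11b in the Rarb set, while Olfm3 was present in all 4.

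All 4 sets occurred in all 11 embryos. The Chat set took 7.33%, 5.05%, 7.69%, 9.20% and 11.3% of Cluster 18 nuclei in S1-1, S1-2, S2-1, S2-2 and S2-4, and from 4.69% to 26.5% with a median of 7.62% in the EtOH embryos. The share of E1-2, 26.5%, rested on 9 of 34 nuclei, and the other EtOH embryos did not exceed 12.2%. Without E1-2 the mean share was 7.76 ± 2.66% over 10 embryos. The Rarb set took 23.9% to 36% in saline and 18.8% to 41.2% in EtOH embryos, and the Gbx1 and Lhx6 set 5.65% to 19.5% and 5.88% to 15.6%, so the groups overlapped for each set.

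**Figure D3:**
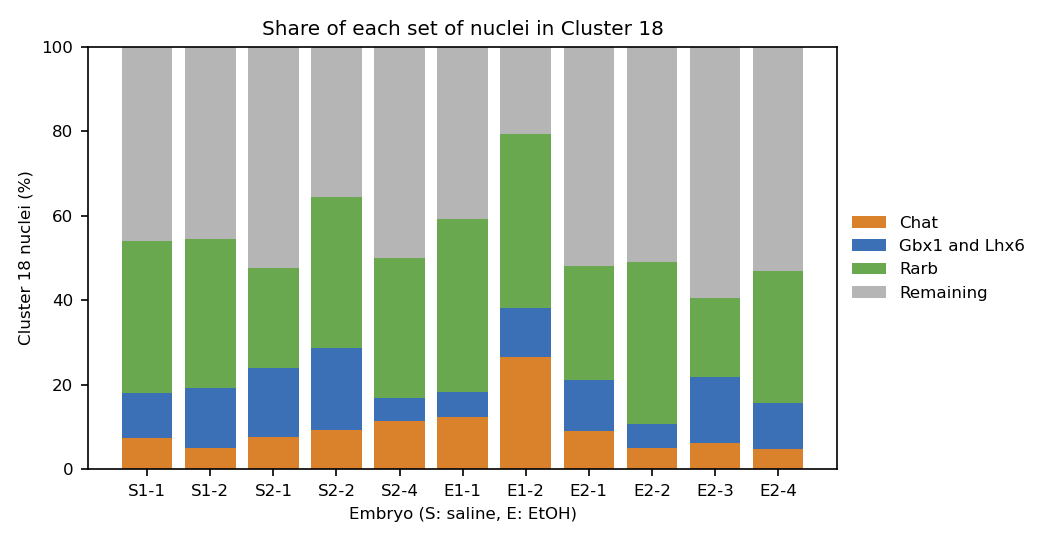
Share of Cluster 18 nuclei (%, stacked to 100) in each of 4 sets for the 5 saline and 6 EtOH embryos. Each embryo held all 4 sets, and E1-2 had the largest Chat share at 26.5%.

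Prenatal EtOH was then compared with saline, to ask whether the exposure changed the abundance of the cluster. Cluster 18 made up 1.96%, 1.96%, 2.16%, 1.96% and 1.72% of the nuclei of S1-1, S1-2, S2-1, S2-2 and S2-4, and from 1.36% to 2.63% with a median of 1.67% of those of the EtOH embryos. The means were 1.95 ± 0.157% (SD, n = 5) and 1.81 ± 0.471% (n = 6), and the groups overlapped. The difference of -0.145 percentage points was within the spread between embryos (two-sided exact permutation test, p = 0.539, and p = 0.543 with labels exchanged within batches). It was -0.396 points in batch 1 and -0.0179 points in batch 2. Fewer nuclei of this type and a changed number of other nuclei cannot be told apart from a share.

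As a share of the nuclei in the 7 interneuron clusters (5, 7, 10, 13, 15, 18 and 23), Cluster 18 was at 7.48 ± 1.95% in saline and 7.31 ± 1.152% in EtOH embryos (exact permutation p = 0.894, within batches p = 0.881). The difference was 1.06 points in batch 1 and -0.878 points in batch 2. S2-2 was at 10.8% and the other saline embryos at 5.72% to 7.002%, and without S2-2 the difference turned to 0.667 points (exact permutation p = 0.338).

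Depth per nucleus was lower after EtOH. Median UMIs per Cluster 18 nucleus were 8874, 8382, 9293, 10040 and 5744 in S1-1, S1-2, S2-1, S2-2 and S2-4, and 4470 to 7318 with a median of 6655 in the EtOH embryos. S2-4 lay inside the EtOH range and the other saline embryos above it. The means were 8467 ± 1639 and 6387 ± 1085 UMIs, a difference of -2080 (exact permutation p = 0.039), which did not pass with labels exchanged within batches (p = 0.0571) or without any 1 of S1-1, S1-2, S2-1, S2-2, E1-1, E2-1 or E2-4 (p from 0.0635 to 0.0905). A lower RNA content per nucleus and a shallower library cannot be told apart here.

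The share of nuclei with a marker UMI, after thinning to 2000 UMIs, was compared over embryos with p-values adjusted over the 4 genes tested. Gad2 was seen in 77.6 ± 6.70% of nuclei in saline and 71.1 ± 5.94% in EtOH embryos (exact permutation, adjusted p = 0.247), Olfm3 in 30.2 ± 6.61% and 28.7 ± 4.11% (adjusted p = 0.665) and Rarb in 28.9 ± 4.53% and 31.3 ± 10.99% (adjusted p = 0.665). None of the 3 marker genes differed beyond the spread between embryos.

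**Figure D4:**
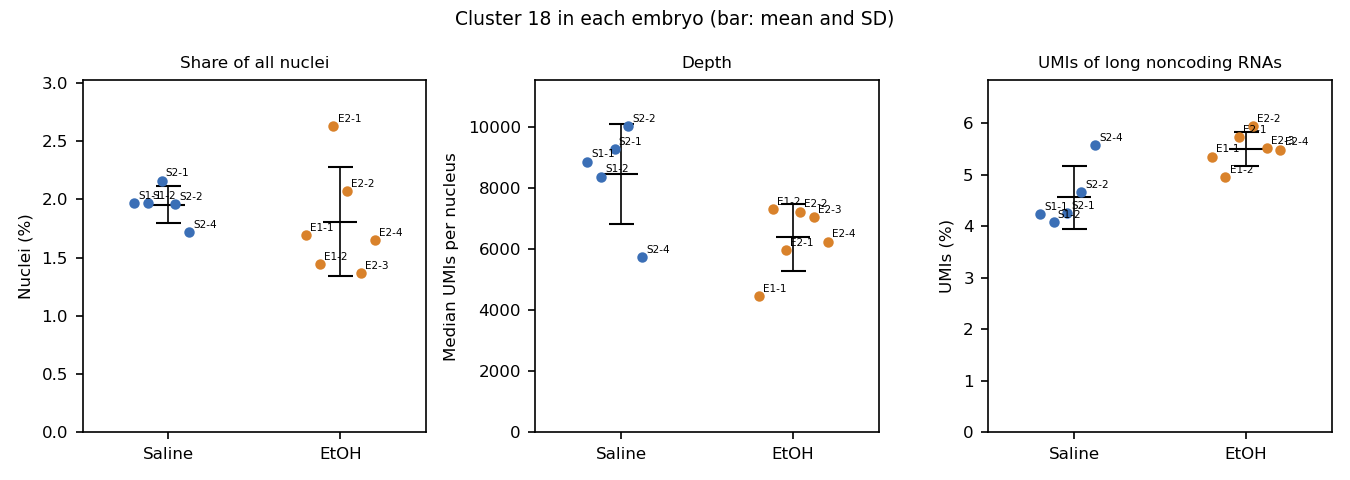
Share of all nuclei (%), median UMIs per nucleus and UMIs from long noncoding RNAs (%) in Cluster 18 for 5 saline and 6 EtOH embryos, as points with the mean and SD of each group (linear axes from 0). The share of nuclei overlapped between groups, and S2-4 lay with the EtOH embryos in depth (5744 UMIs) and in noncoding UMIs (5.58%).

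To find genes that changed after EtOH, counts of Cluster 18 were summed per embryo and tested with edgeR's quasi-likelihood test. Of 7914 genes tested, 20 passed at a Benjamini-Hochberg adjusted p under 0.05 (the minimum fold that was also set removed none), which is 0.253% of the genes. After EtOH 15 were higher (0.19%) and 5 lower (0.0632%), and 949 genes had an unadjusted p under 0.05. The levels of 12 of the 20 did not overlap between the groups, beside 102 of all 7914 genes (1.29%). In such sums, fewer nuclei with a transcript and less of it per nucleus cannot be told apart.

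The number of genes called turned on single embryos. By edgeR it was 0 without S1-1, S1-2, S2-1, S2-2, E2-1 or E2-2, with 793, 842, 796, 921, 828 and 872 genes at an unadjusted p under 0.05, and the other tools were not run on these subsets. It was 10 without E1-1 or E1-2 (for E1-2, 0.128% of 7826 tested), 13 without E2-3 (0.167% of 7789), 14 without E2-4, and 267 (218 higher and 49 lower, 3.29% of 8108 tested) without S2-4. Of the 20 genes, all 20 stayed called without S2-4 and 9 without E1-2, which were Glp2r, Gm45435, Ctnna3, Gm19710, Lrrc4, Grb10, Bbx, Eya4 and Gm26699. Without E2-3 these 9 and Gm35188 stayed called. DESeq2 called 36 genes (0.426% of 8442), 21 higher and 15 lower, and limma with the dam as a random block 93 (1.18% of 7914). The correlation between embryos of a dam that limma estimated was -0.029, so the block made no allowance for likeness of littermates. After thinning every nucleus to 2000 UMIs, 3 of 3643 genes tested passed (1 higher and 2 lower), of which 1 was among the 20. Thinning also lowered the counts per gene, and the part of this loss in the smaller number was not tested.

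Among protein-coding genes that rose, Glp2r, the receptor of the gut hormone glucagon-like peptide 2, was at 11.5, 10.1, 9.22, 7.51 and 12.2 CPM in S1-1, S1-2, S2-1, S2-2 and S2-4, and at 12.6 to 41.7 CPM with a median of 30.7 in the EtOH embryos. The groups did not overlap, although E2-3 (12.6 CPM) was close to S2-4. Its log2 fold change was 1.56 (SE 0.26, adjusted p = 0.0161), on 147 UMIs in all. The gene lies at chr11:67661502-67771153 on the minus strand of GRCm38 and overlaps Gas7 and Rcvrn on the other strand.

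Ctnna3, a catenin of cell junctions, was at 175, 152, 139, 195 and 246 CPM in the saline embryos in the same order, and at 258 to 344 CPM with a median of 314 in the EtOH embryos. No embryo of one group reached the other, and its log2 fold change was 0.72 (SE 0.13, adjusted p = 0.0161). Lrrc4, a postsynaptic adhesion protein that binds netrin-G2, was at 62.5, 52.5, 57.6, 68.7 and 81.9 CPM in saline and 82.7 to 132 CPM (median 118) in EtOH embryos, with the lowest EtOH embryo, E2-4, next to S2-4 (log2 fold change 0.80, SE 0.14, adjusted p = 0.0161).

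P2ry14, a receptor for UDP-sugars, rose by a log2 fold change of 1.08 (SE 0.23, adjusted p = 0.0493), from 15.4 to 36.7 CPM in saline and from 35.1 to 72.04 CPM in EtOH embryos. Atg16l2, a relative of an autophagy protein, rose by 1.01 (SE 0.19, adjusted p = 0.0248), from 23.7 to 44.03 and from 42.4 to 84.2 CPM. For both genes S2-4 was the highest saline embryo and overlapped the lowest EtOH embryo.

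The other 10 genes that rose were annotated as long noncoding RNAs, a biotype of 424 of the 7914 genes tested (5.36%), and none of the 5 genes that fell was. Gm45435, on the strand opposite Anapc10 (chr8:79747267-79752413), was at 6.68, 6.06, 5.38, 8.59 and 13.4 CPM in saline and 18.96 to 27.5 CPM (median 24.5) in EtOH embryos (log2 fold change 1.63, SE 0.28, adjusted p = 0.0161). Gm19710, opposite Hax1 and Ubap2l (chr3:89998760-90021445), was at 32.2, 27.3, 29.96, 36.5 and 78.3 CPM in saline and 83.4 to 109 CPM (median 93.7) in EtOH embryos (log2 fold change 1.24, SE 0.21, adjusted p = 0.0161). S2-4, the highest saline embryo for both, stood close to the EtOH embryos for Gm19710.

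Gm13944, opposite Zfp385b, had the largest change of the 20 genes, a log2 fold change of 2.06 (SE 0.36, adjusted p = 0.0161), from 3.67 to 11.5 CPM in saline and from 8.82 to 67.4 CPM in EtOH embryos, which overlapped through E1-1. The others were Gm26804 (0.85), Gm26699 (1.06), Gm26733 (1.00), Gm35188 (0.98), Gm38304 (1.00), Gm10629 (1.53) and 4831440D22Rik (1.59), with adjusted p from 0.0248 to 0.0453.

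S2-4 was the highest saline embryo for 13 of the 15 genes that rose, while it was also the shallowest saline embryo. The median log2 fold change was 0.48 over the 424 noncoding genes and -0.0058 over the other genes tested. The share of all Cluster 18 UMIs that came from long noncoding RNAs was 4.23%, 4.08%, 4.25%, 4.66% and 5.58% in S1-1, S1-2, S2-1, S2-2 and S2-4. In the EtOH embryos it was 5.35%, 4.96%, 5.74%, 5.95%, 5.51% and 5.49% from E1-1 to E2-4. In Cluster 11 of the same embryos it ranged from 3.97% to 4.48% in the first 4 saline embryos, was 5.21% in S2-4 and ranged from 4.99% to 5.30% after EtOH. The part of this library-wide shift in the single genes was not tested. Of the 20 genes, 17 overlap another annotated gene, beside 63.6% of the 7845 tested genes matched once to the annotation. All 15 that rose overlap a gene on the opposite strand, beside 52.3% of those genes, and none of the 5 that fell does. The paper states that Cell Ranger was run with its default parameters and does not say how strand was used in counting.

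Grb10, an adaptor of the insulin and insulin-like growth factor receptors, fell after EtOH. It was at 73.4, 72.7, 90.6, 76.2 and 73.4 CPM in the saline embryos and at 30.3 to 52.9 CPM with a median of 47.9 in the EtOH embryos, without overlap (log2 fold change -0.84, SE 0.15, adjusted p = 0.0161). It lies at chr11:11930508-12038683 and overlaps no other annotated gene. Bbx, a high mobility group transcription factor, was at 112, 94.9, 99.9, 80.5 and 109 CPM in saline and at 29.5 to 72.04 CPM (median 58.4) in EtOH embryos, also without overlap (log2 fold change -0.82, SE 0.15, adjusted p = 0.0248). S2-4 stood with the other saline embryos for both genes.

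Eya4, a phosphatase and transcriptional coactivator, had the largest fall. It was at 30.3, 30.3, 27.6, 32.2 and 24.5 CPM in saline and at 0 to 16.9 CPM with a median of 11.2 in EtOH embryos (log2 fold change -1.63, SE 0.31, adjusted p = 0.0248). The groups did not overlap, and E1-2, with 34 nuclei, had no Eya4 UMI. Fstl5, a follistatin-like protein, was at 333 to 521 CPM in saline and 168 to 304 CPM in EtOH embryos (log2 fold change -0.66, SE 0.13, adjusted p = 0.0396). Alcam, an adhesion molecule of growing axons, was at 312 to 530 and 178 to 313 CPM (log2 fold change -0.66, SE 0.13, adjusted p = 0.0396), and S2-4, its lowest saline embryo, was just below E1-1.

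The genes that mark the cluster did not pass. Olfm3 was at 501, 689, 423, 410 and 363 CPM in the saline embryos and 490 to 720 CPM (median 610) in the EtOH embryos, which overlapped, with a log2 fold change of 0.31 (SE 0.16, edgeR adjusted p = 0.47). Gad2 had a log2 fold change of -0.02 (SE 0.12, adjusted p = 0.97) and Rarb of 0.12 (SE 0.33, adjusted p = 0.931). Chat (0.06, SE 0.50, adjusted p = 0.986, and -0.36 with adjusted p = 0.764 without E1-2), Lhx8 (0.42, SE 0.24, adjusted p = 0.518) and Isl1 (-0.06, SE 0.15, adjusted p = 0.932) did not pass either.

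With all 11 embryos, no list of genes had a member that passed edgeR's test, and without S2-4, where 3.29% of all genes tested passed, 8 members of 3 lists did, which are named below. Over all 7914 genes tested, 949 had an unadjusted p under 0.05 by edgeR's test and the median log2 fold change was 0.0033. Of 21 glutamate receptor genes tested, 2 had an unadjusted p under 0.05 and the median log2 fold change was 0.05. Of 11 GABA receptor genes 1 had an unadjusted p under 0.05 (median 0.14), of 14 guidance genes 1 (median -0.12), of 12 Tshz, Zfhx, Pbx and Meis genes 3 (median -0.19), of 8 retinoic acid genes 0 (median 0.13), of 9 septal and cholinergic genes 0 (median -0.20), of 11 striatal genes 0 (median -0.05) and of 6 apoptosis genes 3 (median -0.03). DESeq2, limma with the dam as a block and edgeR without S2-4 also called 0 members of these 8 lists.

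Among 100 genes of the authors' marker list, 10 had an unadjusted p under 0.05 by edgeR's test, beside 949 of all 7914 genes tested. By edgeR 0 of the 100 were called, with a median of 0.05. DESeq2, which called 0.426% of all genes it tested, called 1 of them, Kcnd2, a potassium channel gene (edgeR log2 fold change -0.40, SE 0.10, adjusted p = 0.0925), and limma called 4, beside 1.18% of all genes. Without S2-4, edgeR called 6 of the 100, beside 3.29% of all genes, with log2 fold changes of 1.74 for AC154782.1 (adjusted p = 1.5e-07), 1.71 for C79798 (1.87e-06), 2.01 for Gm45680 (1.87e-06), 1.06 for D030068K23Rik (0.0066), 0.64 for Gm26883 (0.0176) and -0.41 for Kcnd2 (0.0336). Of 16 Wnt pathway genes tested, edgeR called 0 (3 at an unadjusted p under 0.05, median -0.20), and DESeq2 and limma called Tcf4. That symbol names a basic helix-loop-helix factor, E2-2, and not the Wnt effector Tcf7l2. Tcf4 was at 903, 840, 719, 853 and 690 CPM in saline and at 480 to 671 CPM in EtOH embryos, without overlap (edgeR log2 fold change -0.46, SE 0.11, adjusted p = 0.0803), and it passed edgeR's test without S2-4 (-0.52, adjusted p = 0.00791). The summed level of 26 Wnt pathway genes was 2725 to 2965 CPM in saline and 2329 to 2642 CPM in EtOH embryos, a sum that carries no test and that includes Tcf4. The means of the sum were 2863 CPM in saline and 2508 CPM in EtOH embryos, and those of Tcf4 alone were 801 and 591 CPM. The sum without Tcf4 was not compared.

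Markers of projection neurons moved with the groups. Slc17a6 was at 23.1, 25.3, 42.3, 42.9 and 24.5 CPM in saline and at 4.21 to 20.2 CPM in EtOH embryos (log2 fold change -1.16, SE 0.29, edgeR adjusted p = 0.0854, and -1.23 with adjusted p = 0.0169 without S2-4), and 2 of 4 glutamatergic genes tested had an unadjusted p under 0.05. The summed level of the 8 glutamatergic genes was 143 to 242 CPM in saline and 25.3 to 229 CPM in EtOH embryos. Radial glial genes summed to 73.7 to 145 and 75.8 to 107 CPM. The part of either in the results was not tested.

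The 20 genes were set beside their own values in Clusters 11, 13 and 15, which come from the same embryos and are therefore not independent of Cluster 18. In Clusters 11, 13 and 15, 85, 81 and 38 genes passed the same test (0.835%, 0.993% and 0.416%). The genes that rose in Cluster 18 had log2 fold changes of 0.56 to 1.22 in Cluster 11, 0.67 to 1.90 in Cluster 13 (14 of the 15 tested) and 0.70 to 1.40 in Cluster 15. P2ry14 had log2 fold changes of 1.08, 0.89, 1.70 and 1.06 in Clusters 18, 11, 13 and 15. Grb10 had -0.84, -0.39, -0.42 and -0.53, Eya4 -1.63, -0.80, -0.67 and -0.57, and Fstl5 -0.66, -0.17, -0.03 and 0.24 in the same order.

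**Figure D5:**
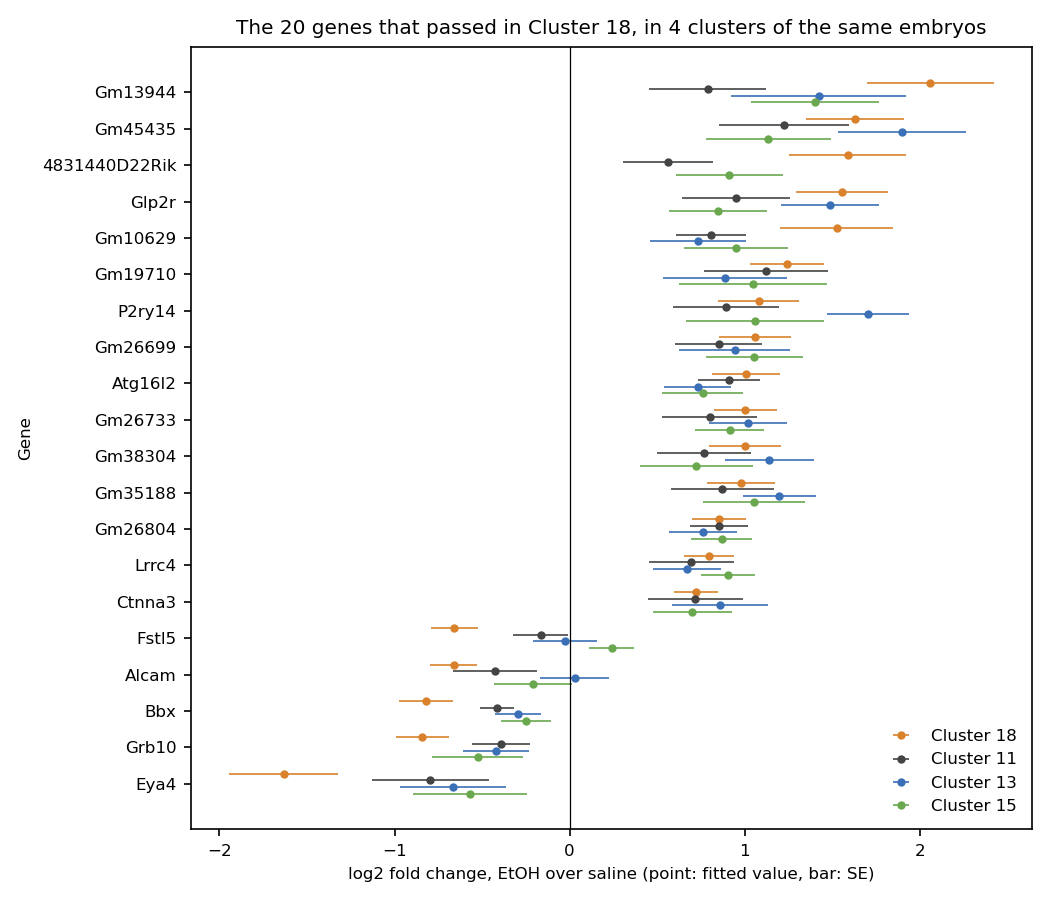
log2 fold change after EtOH (point) with its SE (bar) in Clusters 18, 11, 13 and 15 for the 20 genes that passed in Cluster 18. The values of Cluster 18 ran from -1.63 (Eya4) to 2.06 (Gm13944), and Fstl5 was at -0.66 in Cluster 18 and 0.24 in Cluster 15.

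Whether an EtOH effect differed between Cluster 18 and another cluster was tested as an interaction of cluster and treatment. For each of the 20 genes the adjusted p of this difference was 1.0 against each of the 3 clusters. Over all genes, 1 of 10195 (0.00981%) differed from Cluster 11 with 415 at an unadjusted p under 0.05, 0 of 9812 from Cluster 13 (394) and 0 of 10034 from Cluster 15 (371), by edgeR's quasi-likelihood test, the only tool run for it.

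The gene that differed was Ptchd1, a patched-domain membrane protein. In Cluster 18 it was at 40.1, 70.7, 23.8, 28.98 and 44.03 CPM in saline and at 8.42 to 41.7 CPM (median 15.6) in EtOH embryos. In Cluster 11 it was at 4.83, 6.68, 1.31, 4.88 and 2.72 CPM and at 5.40 to 15.99 CPM (median 6.96). The log2 fold change was -1.14 in Cluster 18 and 0.90 in Cluster 11, each from its own fit, and the groups overlapped within each cluster. The interaction was fitted to both clusters together with embryo as a block, and gave a difference of -2.12 (SE 0.36, edgeR adjusted p = 0.0192). With nuclei thinned to 2000 UMIs the difference was -0.41 (adjusted p = 0.997), and no gene differed from Cluster 11 without S1-2, S2-1, S2-4, E1-1, E1-2, E2-1 or E2-2.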

How the data were processed

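Single nuclei were sequenced from cortices of 5 saline and 6 EtOH embryos. The authors made the deposited UMI counts with Cell Ranger on mm10 (named in the submitters' processing notes), filtered nuclei, removed 1 saline sample, which is not used here, integrated batches and dams with Harmony and clustered in Seurat. The deposited values are raw counts per gene and nucleus, 1 table per cluster and embryo. Here the counts of Cluster 18 were summed per embryo and tested with edgeR 4.0.16 (TMM scaling, its own filter on low counts, robust quasi-likelihood test, R 4.3.3). Genes were called at a Benjamini-Hochberg adjusted p under 0.05 and a fold above 1.25 or below 0.8. Alternatives included DESeq2 1.42.0 and limma 3.58.1. SEs were the absolute log2 fold change divided by the square root of F. Shares were compared by two-sided exact permutation tests over 462 splits of the embryos (210 within batches) with SciPy 1.17.1. Thinning drew 2000 UMIs per nucleus. No doublet caller was run, and 28 nuclei above 20000 UMIs were kept. In the Chat set, 16 of 82 nuclei also had a Rarb UMI, and doublets were not told apart from co-expression.

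Gene positions are from GENCODE M21 (GRCm38), which matched 23136 of 23513 genes. The genes named were Gad2, Olfm3 and Rarb, the first 12 markers the authors list for Cluster 18, up to 10 called genes per direction by adjusted p, up to 3 per direction of each interaction test, the 10 largest ratios to the next cluster at 20 CPM or more, and from each of 28 lists up to 8 members of highest level and those at or near 0. Other genes named, among them the remaining called genes, Tcf4, Kcnd2 and those that describe the sets of nuclei, were chosen after their values were seen. The members and lists were chosen with earlier results of these data known. On simulated data for the EtOH comparison (7667 genes), 71.7% of 99 genes changed by 1 on the log2 scale and 96.7% of 90 changed by 2 were recovered. There, 10 unchanged genes were also called, 6% of the calls. The simulated embryos were independent, without an effect of dam or batch, so these shares may not hold for the real embryos. Samples with the same embryo number did not deviate together from the mean of their group and batch (r from -0.036 to 0.021), and the main test has no block. This check cannot show an effect of dam or batch, because those means were subtracted first. The r values of batch 1, each 0.021, are equal by construction. Results for some genes, 1 of the 4 whose detection was tested among them, are not reported here.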

Additional observations from a re-analysis of the deposited data

Results flagged for a closer look

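In 90 groups of embryos tested, 10 values lay far from the rest of their group by Dixon's test, where chance gives about 1 in 20. Saline embryo S2-2 had 10.83% of its interneuron nuclei in Cluster 18 (the other saline embryos 5.72% to 7.002%). S2-4 stood apart for Gm19710 at 78.27 CPM (others 27.3 to 36.5) and for Gm35188 at 86.84 CPM (others 35.3 to 47.2). S2-1 stood apart for Grb10 at 90.64 CPM (others 72.7 to 76.2), for Gad2 at 1130 CPM (others 819 to 892) and for its share of nuclei in the Rarb set, 23.85% (others 33.1% to 36%).

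Among the EtOH embryos, E1-2 stood apart for Chat at 102.4 CPM (others 15.02 to 39.7) and for its share of nuclei in the Chat set, 26.47% (others 4.69% to 12.2%), both from 34 nuclei. E2-3 was low for Gm35188 at 63.18 CPM (others 94.8 to 113), and E2-4 was high for 4831440D22Rik at 38.32 CPM (others 15.2 to 22.1). The EtOH effect on Ptchd1 differed between Clusters 18 and 11 by -2.12 on the log2 scale (edgeR interaction, adjusted p = 0.0192), on 283 and 121 UMIs.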

How the results depend on the processing

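The number of genes called after EtOH, 20, was 20 with RLE size factors and with the adjusted p alone, 26 with batch as a covariate, 16 with counts summed per dam (4 of them among the 20) and 16 without nuclei above 20000 UMIs. It was 237 of 20178 genes tested without a filter and 64 of 14387 at 1 CPM or more in 5 embryos. It was 36 with DESeq2, 93 with limma, 3 of 3643 after thinning and 2 of 8460 with at least 50 nuclei per embryo. Among alternatives chosen after seeing the data, it was 9 without E1-2 and E2-3 and 5 without nuclei with a UMI of Lhx8 or Gbx1. Leaving out 1 embryo gave 0 to 267. With the replicate block, 22 genes were called, 11 of them among the 20, and the check of pairing found no shared deviation. The causes were not tested.

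The difference in the share of interneuron nuclei turned to 0.027 points between medians and to 0.089 between means of dam means, and ran from -0.61 to 0.667 without 1 embryo (0.667 without S2-2, 0.0404 without E2-2, 0.0206 without E2-3 and 0.0154 without E2-4). It was -0.0589 with Clusters 3 and 11 also counted as interneurons, an alternative chosen after seeing the data. That in the share of all nuclei ran from -0.309 to -0.056. The difference in median UMIs was -2080 (p = 0.0571) in exact permutations within batches, -2219 between medians (exact permutation p = 0.0931) and -2761 to -1687 without 1 embryo. Without thinning, the difference in nuclei with a UMI was -1.687 points for Rarb. Without 1 embryo it ran from -0.035 to 6.16 for Rarb, -3.13 to 0.569 for Olfm3 and -8.72 to -4.16 for Gad2. Genes that differed from Clusters 11, 13 and 15 numbered 3, 4 and 1 at 1 CPM or more in 5 samples. After thinning they numbered 0 of 6103, 0 of 5347 and 0 of 5147 tested. Without 1 embryo, 0 to 2 genes differed from Cluster 11. The log2 fold change of Gad2 turned to 0.053 without E1-2 and E2-3 and ran from -0.0646 to 0.064 without 1 embryo (0.064 without S2-1, 0.048 without E1-2 and 0.00047 without E2-1), and that of Rarb ran from -0.00068 (without S2-1) to 0.3. The 20 called genes kept their direction in every alternative that tested them. Embryos with 32 to 49 nuclei limit the precision for low genes.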
